A study of Mus musculus with 6 samples.

Results

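The genes described here are 10 early-response transcription factors: the AP-1 subunits Fos, Fosb, Jun and Junb with their partner Atf3, the zinc-finger factors Egr1, Egr2 and Egr3, and the Krüppel-like factors Klf2 and Klf4. Every probe of the array whose annotated symbol is one of these names was taken, which gave 14 of 45281 probes and 10 of 19057 annotated genes. The cells were CD11b+Ly6G- cells, a sort gate for myeloid cells other than neutrophils, taken from hearts of ICR mice, an outbred strain, of mixed sex. In one group (P14) the left anterior descending coronary artery had been tied at day 14 after birth, in the other (P1) at day 1, and in both the cells were sorted 3 days after that infarction. Each group had 3 Illumina bead arrays, and there were no uninjured hearts among these samples, so each value describes cells after injury. Separate hearts, pools or aliquots as the source of each array are not stated in the labels, so a p-value here covers variation among these arrays and possibly no more than technical variation.

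AP-1 is a family of dimers in which Fos proteins pair with Jun proteins through a leucine zipper and bind short palindromic DNA sites. Fos and Egr genes are classical immediate-early genes: growth factor, cytokine or stress signals reach them through MAP kinases and the serum response factor within minutes, without new protein synthesis, and their messages decay quickly. Egr1 and Egr2 take part in the differentiation and activation of macrophages. Klf2 restrains the inflammatory activation of myeloid cells, and Klf4 is needed for the formation of inflammatory monocytes and takes part in alternative macrophage activation. Tissue digestion and cell sorting are themselves known to induce Fos, Jun, Egr1, Atf3 and heat-shock genes, and these arrays hold no sample taken without sorting.

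A probe of 4 genes differed between ages, for Klf4 1 of its 3 probes. Of these 4 genes, Klf2, Junb and Klf4 have a start-site window in the RefSeq table used here (build GRCm38.p6, 8 of the 10 genes matched). The 250 bases before each start are printed 5′ to 3′ on the gene's strand, because these are the genes on which the results turn. Capitals mark a match, on either strand, to the EGR motif GCGNGGGCG or to the MEF2 site, or to any of the cAMP response element TGACGTCA, the AP-1 motif TGANTCA and the CArG box of serum response factor, of which these 3 windows hold none.
Klf2, chr8:72318812-72319061, plus strand: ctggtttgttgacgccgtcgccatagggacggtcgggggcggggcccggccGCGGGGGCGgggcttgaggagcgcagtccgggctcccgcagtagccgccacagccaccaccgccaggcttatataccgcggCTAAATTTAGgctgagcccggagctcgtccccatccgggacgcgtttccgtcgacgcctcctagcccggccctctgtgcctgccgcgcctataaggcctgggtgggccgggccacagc
Junb, chr8:84978749-84978998, minus strand: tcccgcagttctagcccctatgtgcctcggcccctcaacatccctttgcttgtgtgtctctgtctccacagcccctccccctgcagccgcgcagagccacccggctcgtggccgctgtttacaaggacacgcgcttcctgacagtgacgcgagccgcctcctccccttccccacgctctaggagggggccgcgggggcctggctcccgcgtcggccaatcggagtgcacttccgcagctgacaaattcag
Klf4, chr4:55532476-55532725, minus strand: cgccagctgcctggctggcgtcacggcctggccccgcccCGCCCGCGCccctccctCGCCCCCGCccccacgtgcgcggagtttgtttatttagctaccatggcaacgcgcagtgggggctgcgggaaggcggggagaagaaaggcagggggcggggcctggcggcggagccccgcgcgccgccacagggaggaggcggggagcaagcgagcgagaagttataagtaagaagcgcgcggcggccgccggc
The Klf2 window holds 1 EGR match beginning 199 bases before the start and 1 MEF2 match beginning 118 bases before it, and the Klf4 window holds 2 EGR matches, 211 and 194 bases before. The window of Fosb, which was not called, also holds 1 EGR match, 50 bases before its start. The EGR matches of Klf2 and Klf4 overlap matches to the GC box GGGCGG or the KLF motif CCNCNCCC. Of 32851 windows of the same length in the table, 4.7% hold the EGR motif, 2.92% the MEF2 site, 6.75% the AP-1 motif, 1.55% the cAMP response element and 1.47% the CArG box. The Junb window holds 2 matches to the KLF motif, which 45.9% of all windows hold, and none to the GC box (32.7% of windows) or the ETS motif CCGGAA (12% of windows). A MEF2 match also lies in the windows of Jun (33 bases before the start) and Atf3 (22 bases before), and a CArG match in 4 of 5 Egr2 windows, which overlap one another in part. A match is a description of the letters and not of a bound site.

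Probe by probe, 4 of the 13 member probes that could be tested differed between ages at an adjusted p under 0.05, against 16.7% of all 18915 probes tested. Klf2, Egr3 and Junb were lower in P14, where the background in that direction was 8.32% of probes, and 1 of 3 Klf4 probes was higher, where it was 8.36%. The P14 and P1 arrays did not overlap on 7 member probes, 6 lower and 1 higher in P14, against 36.1% of all probes (18.5% lower and 17.5% higher). These 7 were the 4 called probes and those of Fos, Egr1 and Egr2. Tested member probes ran from a log2 fold change (P14 minus P1) of -0.87 to 0.66 with a median of -0.14, beside a median of -0.00221 over all probes tested. One further probe, of Junb, stayed below the background floor of 127 on every array, at 113 to 118 in P14 and 110 to 122 in P1, and was not tested. A probe was tested when its normalized intensity exceeded that floor on at least 3 arrays.

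**Figure D1:**
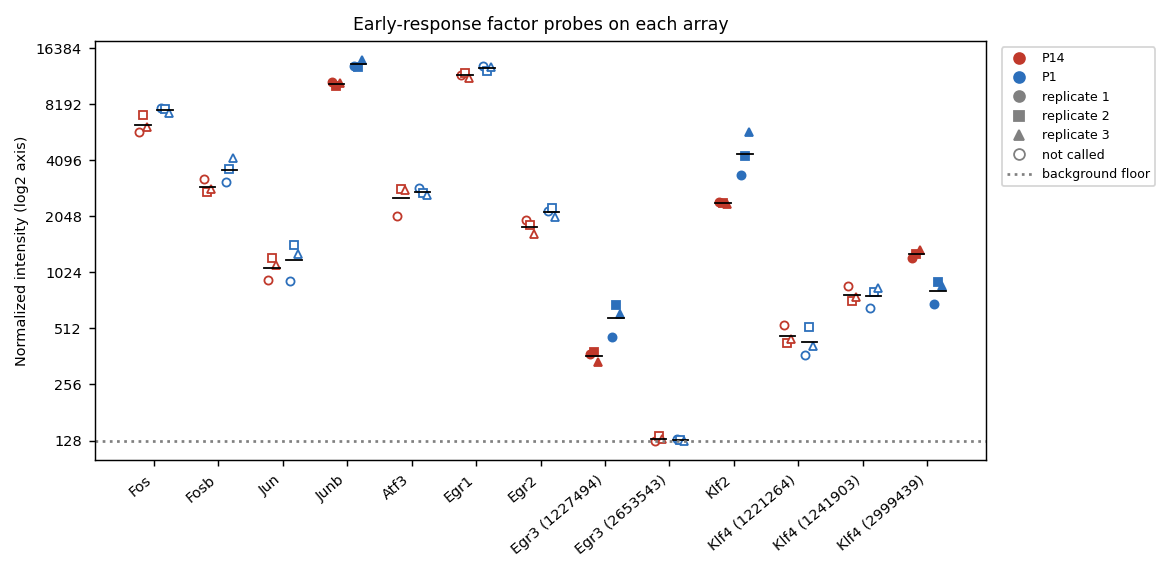
Normalized intensity (log2 axis) of the 13 tested member probes on each P14 array (red, left of each pair) and P1 array (blue). Symbols give the replicate, filled symbols mark an adjusted p under 0.05, black bars are means of log2 values and the dotted line is the background floor of 127; the Klf2 and Egr3 (ILMN_1227494) arrays of P14 all lie below those of P1, and the Klf4 (ILMN_2999439) arrays of P14 all lie above.

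Among the AP-1 genes, Junb, a Jun-family subunit that pairs with Fos proteins, had normalized intensities of 10779, 10235 and 10721 on the P14 arrays, against 13095, 12979 and 14202 on the P1 arrays. Every P14 array lay below every P1 array, and the spread within each age was narrow. Junb was 1.27-fold lower in P14 (log2 fold change -0.34 ± 0.0661, SE, n = 3 per group, limma adjusted p = 0.0139). Without P1 replicate 3, its highest array, the log2 fold change was -0.30 and the call was lost (adjusted p = 0.0553). Fos, the prototype immediate-early subunit, had intensities of 5794, 7157 and 6212 in P14, against 7838, 7728 and 7311 in P1. The groups did not overlap, with P14 replicate 2 close to the lowest P1 array. Its log2 fold change of -0.26 (95% confidence interval -0.46 to -0.06) did not pass after adjustment over all probes (adjusted p = 0.0813). Fos passed in only 1 of the 6 fits that leave out 1 array, the fit without P14 replicate 2 (-0.35, adjusted p = 0.0420). The others gave adjusted p-values of 0.137 to 0.215.

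Fosb, the second Fos-family subunit, had 3264, 2757 and 2884 in P14, against 3127, 3677 and 4238 in P1. P14 replicate 1 lay above P1 replicate 1, so the ages overlapped, and the log2 fold change of -0.30 (-0.58 to -0.03) did not pass (adjusted p = 0.121). Fosb passed in only 1 of the 6 fits that leave out 1 array, the fit without P1 replicate 1 (-0.42, adjusted p = 0.0470). The others gave adjusted p-values of 0.115 to 0.320. Jun, the subunit that can also pair with itself, had 927, 1216 and 1128 in P14, against 920, 1434 and 1285 in P1. Its lowest array in each age was replicate 1, and the difference of -0.14 (-0.53 to 0.25, adjusted p = 0.644) was smaller than the spread within either age. Atf3, a stress-induced factor that represses many inflammatory genes, had 2068, 2865 and 2851 in P14, against 2896, 2745 and 2654 in P1. Only P14 replicate 1 stood apart, and the difference was -0.11 (-0.40 to 0.19, adjusted p = 0.633). The intervals of Jun and Atf3 allow a change of either sign.

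Of the EGR genes, Egr3, a target of the same signals as Egr1, differed most. Its brighter probe (ILMN_1227494) had 372, 383 and 339 in P14, against 461, 685 and 615 in P1. All P14 arrays were below all P1 arrays, and the spread was wider in P1 (SD 0.0928 in P14 and 0.295 in P1 on the log2 scale). Egr3 was 1.59-fold lower in P14 (-0.67 ± 0.139, adjusted p = 0.0174), and 1.68-fold lower after normexp background correction. The call was lost without P1 replicate 3 (-0.63, adjusted p = 0.0641), and with the mean of both probes the log2 fold change was -0.32 (adjusted p = 0.0336). Its other probe (ILMN_2653543), at 127 to 135 in P14 and 127 to 130 in P1, lay at the background floor and carries no measurable level.

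Egr2, which takes part in macrophage differentiation and activation, had 1952, 1830 and 1639 in P14, against 2187, 2283 and 2027 in P1. The ages did not overlap, but the log2 fold change of -0.26 (-0.46 to -0.07) missed the threshold (adjusted p = 0.0709) and did so without any 1 array too (0.0689 to 0.180). Egr1, the best-known immediate-early member of the family, had 11777, 12080 and 11330 in P14, against 13160, 12328 and 12979 in P1. These values also separated the ages, by a small margin between P14 replicate 2 and P1 replicate 2. The difference was -0.13 (-0.27 to 0.02, adjusted p = 0.210). Adjusted p-values for Egr1 stayed between 0.211 and 0.406 when single arrays were left out.

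**Figure D2:**
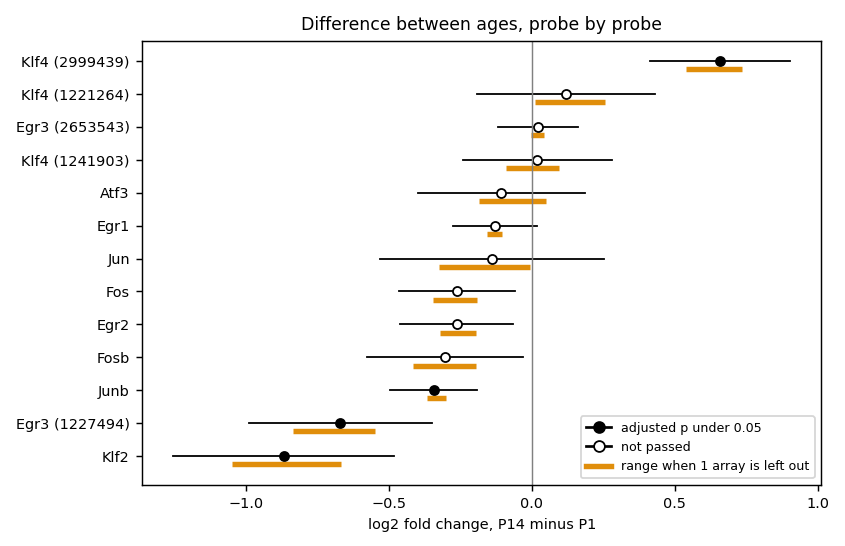
Log2 fold change (P14 minus P1) of each tested member probe, with limma's 95% confidence interval as a black line, a filled circle for an adjusted p under 0.05, and an orange bar for the range over the fits that leave out 1 array. Klf2, Egr3 (ILMN_1227494) and Junb lie left of 0 and Klf4 (ILMN_2999439) lies right of it, while the orange bars of Atf3, Klf4 (ILMN_1241903) and Egr3 (ILMN_2653543) cross 0. Probe numbers on the axis omit the ILMN_ prefix.

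Klf2 showed the largest difference of the 10 genes. Its intensities were 2446, 2422 and 2392 in P14, against 3431, 4296 and 5832 in P1. The P14 arrays were almost equal (SD 0.0161 on the log2 scale), whereas the P1 arrays spread widely (SD 0.384), with replicate 3 highest and replicate 1 lowest. Klf2 was 1.82-fold lower in P14 (-0.87 ± 0.167, adjusted p = 0.0139). The call held without any 1 array, with a log2 fold change of -1.05 to -0.67 and an adjusted p of 0.00716 to 0.0454.

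The 3 probes of Klf4, all designed to the same RefSeq transcript record, did not give 1 answer. Probe ILMN_2999439, the brightest, had 1228, 1286 and 1357 in P14, against 694, 908 and 865 in P1. All P14 arrays lay above all P1 arrays, and the probe was 1.58-fold higher in P14 (0.66 ± 0.106, adjusted p = 0.00770), with adjusted p-values of 0.0111 to 0.0288 without single arrays. Probe ILMN_1241903 had 860, 716 and 752 in P14, against 656, 800 and 847 in P1, with a difference of 0.02 (-0.24 to 0.28, adjusted p = 0.935). Probe ILMN_1221264 had 531, 426 and 452 in P14, against 370, 519 and 414 in P1, with a difference of 0.12 (-0.19 to 0.43, adjusted p = 0.614). On both of these the ages overlapped.

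Within arrays, the log2 ratio of ILMN_2999439 to ILMN_1241903 was 0.74 ± 0.193 in P14 and 0.10 ± 0.0779 in P1 (SD, n = 3 each), a difference of 0.64 with no overlap (exact permutation p = 0.1, two-sided, the smallest that 3 against 3 arrays allow). The ratio of ILMN_2999439 to ILMN_1221264 likewise did not overlap between ages (1.46 ± 0.220 in P14 and 0.92 ± 0.129 in P1, exact permutation p = 0.1). The ratio of the other 2 probes to each other overlapped (0.73 ± 0.0278 in P14 and 0.83 ± 0.204 in P1, exact permutation p = 0.5). Adjusted over these 3 ratios, the exact permutation p-values were 0.15, 0.15 and 0.5. Averaged over its probes, Klf4 had a log2 fold change of 0.27 and did not pass (adjusted p = 0.121). The rise of Klf4 therefore rests on 1 probe, and where these probes lie in the transcript is not given in the files used here.

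**Figure D3:**
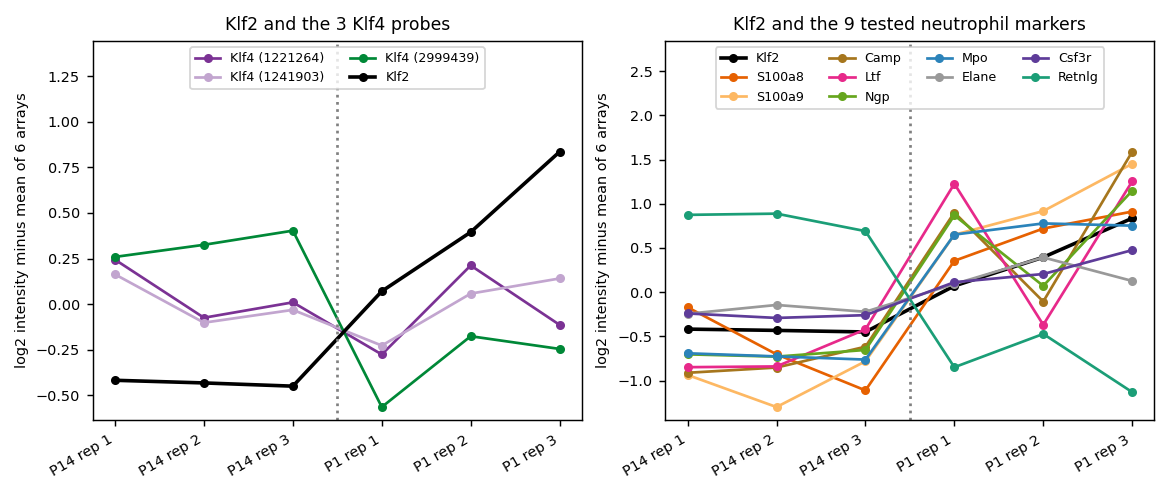
Log2 intensity minus the mean of the 6 arrays, for Klf2 and the 3 Klf4 probes (left) and for Klf2 and the 9 tested neutrophil markers (right), with the P14 arrays left of the dotted line and the P1 arrays right of it. Lines join the values of 1 probe and imply no order of replicates. Klf4 (ILMN_2999439) separates from the other Klf4 probes. Of the 9 neutrophil markers 8 are lower in P14, with Ngp and Mpo below the floor on every P14 array. S100a8, S100a9 and Csf3r share the order of Klf2 over the P1 arrays and the other markers do not.

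Most tested neutrophil markers were lower in P14. Of 11 neutrophil markers 9 were tested, 8 lower and 1 (Retnlg) higher in P14, and Cxcr2 and Mmp8 stayed below the floor. The summed intensity of the 9 tested markers was 8847 to 12401 in P14, against 15563 to 22111 in P1. Ngp (112 to 118 in P14) and Mpo (119 to 125) exceeded the floor on 0 P14 arrays, Camp on 1 and Elane on 2. Ngp and Mpo could therefore be tested only through their P1 arrays, which sets their direction in advance. S100a8, a calcium-binding protein abundant in neutrophils and monocytes, had 6801, 4703 and 3545 in P14, against 9789, 12608 and 14401 in P1. Over the P1 arrays 3 of the 9 tested markers (S100a8, S100a9 and Csf3r) stood in the same order as Klf2, and the other 6 (Camp, Ltf, Ngp, Mpo, Elane and Retnlg) did not. In bulk samples fewer cells of a type and less RNA per cell cannot be told apart, and the part of these markers in the Klf2, Junb and Egr3 values was not tested. For endothelial cells, which express Klf2 and Klf4 strongly, limma called 0 of 12 tested markers (1 at an unadjusted p under 0.05), and their summed intensity overlapped (2635 to 3424 in P14, 2998 to 4700 in P1). Of these 12 markers 11 had a log2 fold change below 0 (median -0.19), beside 5402 of 10419 over all genes (median -0.00844). Cardiomyocyte markers were lower in P14 in 5 of 7 (summed intensity 2165 to 2444 in P14, against 4783 to 11089 in P1). Of these 5, Tnni3 exceeded the floor on only 1 P14 array. Of 7 tested fibroblast markers 2 were lower, Col1a1 (-1.47, adjusted p = 0.00507) and Tcf21 (-0.43, adjusted p = 0.0366), with an overlapping summed intensity (2463 to 2721 in P14, against 2486 to 3925 in P1). Of 10 resident macrophage markers 5 were lower and 1 higher in P14 (summed 19261 to 20926, against 33887 to 39945 in P1), and of 6 monocyte markers 5 were higher (summed 5622 to 11524, against 3528 to 5925 in P1, with overlap). Among these monocyte markers, Vcan and Itga4 were called on 1 of 3 probes each and Chil3 on all 3. The Ccr2 and Chil3 calls depended on single arrays, as given below. All 8 gate and pan-macrophage markers with a named probe were tested, and among them Ptprc was higher and Csf1r lower in P14, each called on 1 of 2 probes. The part of these lists was not tested either.

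The other genes of the same signalling pathway were read from 1 probe per gene, where 19.6% of 10419 genes passed (9.43% higher and 10.1% lower in P14). Among 19 tested AP-1 relatives and dimer partners, 4 were higher and 2 lower in P14, with a median log2 fold change of -0.03 beside -0.00844 over all genes. Mafg, a small Maf protein that partners NF-E2-type factors, was higher (0.63, adjusted p = 0.0146; 0.0505 without P1 replicate 3), as were Jdp2, a Jun-dimerizing repressor of AP-1 (0.55, adjusted p = 0.00711), and Crem, a cAMP-responsive factor (0.53, adjusted p = 0.00553, called on 2 of its 4 probes). Jdp2 had 799, 853 and 694 in P14, against 547, 539 and 511 in P1, with no overlap. Lower were Nfe2, the NF-E2 subunit of blood cells (-0.61, adjusted p = 0.00902), and Maf (-0.39, adjusted p = 0.0443), whose call was lost without any 1 of P14 replicates 1 and 3 and P1 replicates 2 and 3 (0.101 to 0.138). Ddit3, the stress factor CHOP, was higher by 0.27 (adjusted p = 0.0492; 0.111 to 0.151 without any 1 of P14 replicates 1 and 2 and P1 replicates 1 and 3), and it passed under 4 of 9 other settings of the fit. Without P1 replicate 3 the list held 2 higher and 1 lower. Fosl2 (0.22) and Jund (-0.24), further genes of the Fos and Jun families, did not pass.

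Of 9 other tested KLF genes only Klf9, a glucocorticoid-responsive factor, passed on its brightest probe: it had 839, 1128 and 720 in P14, against 461, 518 and 559 in P1 (0.78 ± 0.157, adjusted p = 0.0157). A second KLF gene passed without P1 replicate 2, with trend and robust eBayes, with array weights and after normexp. Among dimmer probes, 1 of 2 for Klf13 was called higher (0.35) and 1 of 3 for Klf7 lower (-0.48). For the EGR corepressors Nab1 (0.13) and Nab2 (-0.20), limma called 0 of 2 on their brightest probes (0 at an unadjusted p under 0.05; 1 higher with the mean of probes), and Egr4 stayed below the floor. Of the 5 Nab1 probes, 1 dimmer probe was called higher, with log2 fold changes over the 5 from 0.09 to 0.41. For serum response factor and its partners limma called 0 of 5 (1 at an unadjusted p under 0.05; 1 lower without P14 replicate 1), among them Srf at 0.11 and Elk4 at -0.28.

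Among 9 MAP kinase pathway genes, 2 were higher and 2 lower. Map3k8, the kinase that couples Toll-like receptors to ERK, had 939, 963 and 898 in P14, against 1529, 1460 and 1486 in P1 (-0.68 ± 0.0621, adjusted p = 0.00158). These groups lay far apart relative to their spread, and the call held without any 1 array. Mapk14, the stress kinase p38 alpha, was lower at -0.62 (adjusted p = 0.0150; at most 0.0526 without P14 replicate 2 or P1 replicate 3), and the ERK-activating kinases Map2k2 (0.65, adjusted p = 0.00277, called on 1 of 2 probes) and Map2k1 (0.26, adjusted p = 0.0389) were higher. The list held 1 higher and 1 lower without P14 replicate 2 or P1 replicate 3, and Map2k1 lost its call without each of the 6 arrays in turn (0.0516 to 0.108). Of 12 phosphatases and ERK feedback genes, Errfi1, an inhibitor of the EGF receptor, was higher (1.16, adjusted p = 0.000756), and Spred1, an inhibitor of Ras signalling (-0.47, adjusted p = 0.0109), and the JNK phosphatase Dusp8 (-0.34, adjusted p = 0.0135) were lower. Dusp1 (0.21) and Dusp6 (0.09), induced alongside Fos and Egr1, did not pass.

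Other immediate-early genes split evenly. Of 40 tested, 6 were higher and 6 lower in P14, with a median of -0.02. Plk3, a stress-response kinase, had 2455, 2030 and 2170 in P14, against 1078, 1057 and 1096 in P1 (1.04 ± 0.0812, adjusted p = 0.00116). Rhob, a GTPase of endosomes, went the other way, with 893, 899 and 847 in P14, against 1800, 1779 and 1761 in P1 (-1.02 ± 0.0603, adjusted p = 0.000453). Both calls held without any 1 array. Csrnp1, a nuclear protein induced by AXIN1, was higher (0.66, adjusted p = 0.0240; 0.0596 to 0.0761 without any 1 of P14 replicates 1 and 2 and P1 replicates 1 and 2), as was the kinase Sik1 (0.54, adjusted p = 0.0309; 0.0844 to 0.0957 without any 1 of P14 replicates 1 and 2 and P1 replicate 3). Ppp1r15a, the phosphatase subunit GADD34, was lower (-0.49, adjusted p = 0.0215; 0.0542 to 0.0755 without any 1 of P14 replicate 2 and P1 replicates 2 and 3), as was Plk2 (-0.43, adjusted p = 0.0267; 0.0722 to 0.0843 without any 1 of P14 replicates 1 and 2 and P1 replicates 1 and 2). The count depended on single arrays: 2 higher and 2 lower without P14 replicate 1, 2 and 1 without P14 replicate 2, 4 and 2 without P1 replicate 1, 3 and 3 without P1 replicate 2, and 3 and 2 without P1 replicate 3. Ier2 (-0.12), Nr4a1 (-0.16) and Myc (-0.03) did not pass, and Ier2 and Nr4a1 lay close to the background floor (115 to 135 and 116 to 130 in P14, 129 to 136 and 131 to 140 in P1).

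Heat-shock genes are induced by handling stress as well as by heat. Of 11 tested, 3 passed, each higher in P14, and the median of the list was 0.32: Hsp90aa1 (0.85, adjusted p = 0.00137, called on 1 of 2 probes), Hsph1 (0.82, adjusted p = 0.00215) and Dnajb1 (0.40, adjusted p = 0.0212; 0.0533 and 0.0608 without P1 replicate 2 and P1 replicate 1). Hspa1a (0.32) and Hspa1b (0.46), near-identical genes whose probes may not tell them apart, did not pass. With the replicate number as a block 5 were higher. Digestion and sorting times are not given in the labels, and their part was not tested.

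**Figure D4:**
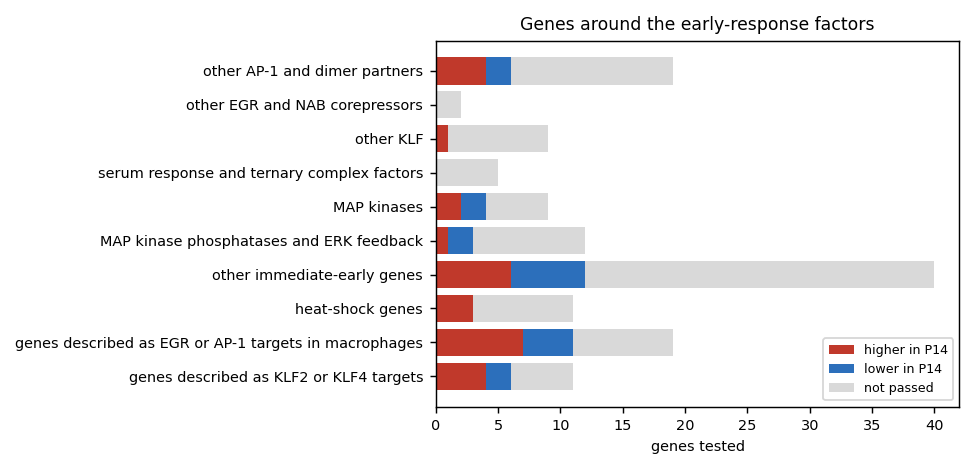
Number of tested genes in each list that were higher in P14 (red), lower in P14 (blue) or did not pass (grey) at an adjusted p under 0.05, with 1 probe per gene. The list of other immediate-early genes holds 6 higher and 6 lower of 40, and heat-shock genes hold 3 higher of 11.

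Genes described elsewhere as targets of these factors also went both ways. Of 19 tested EGR or AP-1 targets, 7 were higher and 4 lower in P14 (57.9%, median 0.17). Over all genes 19.6% passed (9.43% higher and 10.1% lower, median -0.00844), and this list was chosen with earlier results of these data known. The largest were Il10 (0.98), the collagenase Mmp13 (0.92, called on 1 of 2 probes), Thbs1 (0.91) and Vegfa (0.84) upward and Mmp9 (-0.94) and the chemokine Ccl3 (-0.75) downward, at adjusted p-values of 0.00188 to 0.0165. Of 11 tested KLF2 or KLF4 targets, chosen in the same way, 4 were higher and 2 lower (54.5%, median -0.03), against the same 19.6% of all genes. Thbd, the anticoagulant receptor thrombomodulin that both KLFs induce in endothelial cells, had 882, 829 and 743 in P14, against 299, 434 and 410 in P1 (1.12 ± 0.141, adjusted p = 0.00357). This sign was opposite to that of Klf2 and the same as that of the called Klf4 probe (0.66). The other 2 Klf4 probes were at 0.02 and 0.12 and did not pass. Chil3 (1.12), the integrin gene Itgb7 (0.77) and Ccr2 (0.47) were higher as well, and Mrc1 (-1.02) and Cxcr4 (-0.42) were lower. Single arrays decided 3 of these calls: Chil3 lost its call without any array but P14 replicate 3 (0.0511 to 0.101), Ccr2 without P14 replicates 1 or 2 or P1 replicates 2 or 3 (0.0779 to 0.0892), and Cxcr4 without P14 replicates 1 or 3 or P1 replicates 1 or 2 (0.0697 to 0.111). The KLF list held 2 higher and 1 lower without P14 replicate 1, without P1 replicate 2, or with no filter on dim probes. It overlaps the marker lists above on the same probes: Chil3 and Ccr2 are also monocyte markers and Mrc1 a resident macrophage marker. Nos3 and Cd14, which did not pass, are also endothelial and pan-macrophage markers. The values of these genes are therefore counted in both places.

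Of 10418 other genes, the 5 whose log2 intensities followed those of Klf2 most closely over the 6 arrays were Acrbp, Ssh3, Tmem179b, Csf3r and Unk, with Pearson's r of 0.992 to 0.997. The arrays share the age difference, so r was also taken on deviations from each age's mean, where it ran from 0.969 to 0.993. Klf2 varied little among the P14 arrays (SD 0.0161 on the log2 scale, against 0.384 in P1), so this r rests mainly on the P1 arrays. The 5 genes were picked by r on these same arrays, so it is no independent check. Csf3r, the granulocyte colony-stimulating factor receptor and 1 of the neutrophil markers above, had 378, 365 and 373 in P14, against 483, 515 and 621 in P1 (-0.53, adjusted p = 0.0115, called on 1 of 4 probes). Acrbp lay close to the background floor, at 136 to 137 in P14 and 141 to 148 in P1. Among the members themselves, Klf2 followed Junb with r = 0.95 over the 6 arrays (0.75 on deviations within ages). It followed Egr3 (ILMN_1227494) with r = 0.92 (0.62) and Fosb with r = 0.92 (0.87). With Klf4 (ILMN_1241903) r was 0.29 over the 6 arrays and 0.77 within ages. These correlations come from 6 arrays and the top of a ranking of many genes, and are given as a description.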

How the data were processed

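Total RNA of sorted cells was labelled, per the labels, and read on Illumina mouse bead arrays. The authors deposited 1 linear intensity per probe for each of 6 arrays. Their sorted values differed by at most 0.471% between arrays, so the deposited intensities had been quantile-normalized; background, most frequent at 112, had not been subtracted, which understates folds of dim probes. The software and steps behind the intensity values are not given in the sources used here. A table of 24 scanner columns named by chip position matches no label and was not used, so detection p-values and batches were not available to the fits.

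Probes were named through the platform's annotation: 34885 had 1 symbol, 18 several and 10378 none. Of the 34885, 34807 matched RefSeq genes (GRCm38.p6) and 0 symbols changed. The floor of 127 is the background mode plus 3 standard deviations of the mirrored lower values. Probes above it on at least 3 arrays (18915) were compared on log2 intensity by a two-sided limma test (version 3.58.1, R 4.3.3; lmFit, eBayes) whose model held the group alone, with Benjamini-Hochberg adjustment over all of them at 0.05. Log2 fold changes are P14 minus P1, with limma's standard errors. List genes use the tested probe with the highest mean. The fit was tested on simulated data. The number of arrays limits precision.

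Members and lists were chosen with earlier results of these data known. All member probes are reported. Of each list, up to 6 called genes with the largest absolute log2 fold change are named, or the 2 with the highest mean where none passed, and the 5 genes most correlated with the called member of largest change. Other genes named without a call, single further examples, and those in the closing observations were chosen after their values were seen.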

Additional observations from a re-analysis of the deposited data

How the results depend on the processing

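All 4 member calls held with no filter, with a filter on all arrays, with trend and robust eBayes, with array weights, after normexp, after cyclic loess, with quantile normalization within named probes and with 1 probe per gene; with the mean of probes the Klf4 call was lost (0.27, adjusted p = 0.121). The number of called probes over the array ranged from 1427 to 2758 without single arrays, against 3156 with all, and was lowest without P1 replicate 3, with 1755 without P14 replicate 1 and 1775 without P14 replicate 2. Called member probes ranged from 2 to 5 of 13, the 2 again without P1 replicate 3, where Junb and Egr3 were lost. The replicate numbers were not shown to pair the arrays: deviations of same-numbered arrays correlated at 0.137, 0.0679 and 0.123. With the replicate block 3250 probes and the same number of member probes (4) passed. Rescaling moved the median log2 fold change by at most 0.00434. Among named list genes, Maf, Csrnp1, Sik1, Cxcr4 and Ccr2 did not pass with no filter (adjusted p of 0.0532 to 0.0821), and Map2k1, Cxcr4 and Chil3 passed under 7 of 9 settings with all arrays, with adjusted p-values up to 0.0601, 0.0726 and 0.112; the cause was not tested.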

Other observations

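For several genes around the early-response factors, the brightest probe did not pass while a dimmer one did; these genes were chosen after their values were seen. Irf1, an interferon-induced factor, had 1 of 5 probes lower in P14, with log2 fold changes from -0.60 to -0.05. Klf7 had 1 of 3 probes lower (from -0.48 to 0.15), Per1, a clock gene and immediate-early gene, 1 of 3 higher (from -0.11 to 0.33), and Hspd1, the mitochondrial chaperonin, 1 of 2 higher (from -0.22 to 0.59). Id2, an inhibitor of helix-loop-helix factors, had 2 of 3 probes higher (from 0.15 to 0.52), and Atf4, the stress-response factor, 1 of 2 (0.30 and 0.49). Klf6, the KLF gene most often described as an immediate-early gene, had probes at 0.07 and 0.53 and neither passed.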
